A study of Rattus norvegicus with 42 samples.

Results

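A group of 9 genes, 6 that restrain inflammatory signalling and 3 that encode cytokine receptor chains, was followed here through GR binding, elongating polymerase and mRNA in the liver. They were taken by name from the pSer2 Pol2 table and number 9 of the 26258 genes in it. The choice was made with earlier results of these data known, so counts of calls set beside those of all genes are descriptions. The inhibitors were Tsc22d3 (GILZ), Nfkbia (IkBa), Tnfaip3 (A20), Tnip1 (ABIN-1), Zfp36 (tristetraprolin) and Irak3 (IRAK-M), and the cytokine receptor chains were Il1r1, Il1rap and Il6r. They held 23 of the 60999 pSer2 Pol2 regions, 9 of the 22929 genes of the RNA count table, and 21 of the 3981 GR regions, a GR region being assigned where its centre lay within 50 kb of a transcription start site (TSS) of the gene. Tnip1 and Irak3 had no GR region in that window.

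All animals were male Sprague Dawley rats that had been adrenalectomised and so lacked their own corticosterone (CORT). They received CORT (CORT-HBC, a water-soluble complex) or vehicle (VEH) intravenously over 3 h, either as 20 min hourly pulses (PULS) or as a constant infusion (CONS). Liver for ChIP-Seq was taken at the third pulse (PEAK_140) and in the trough after it (NADIR_180), and at the same times of the constant infusion (CONS_140 and CONS_180). Each of these groups had 2 libraries for GR, for Pol2 phosphorylated at serine 2 of its tail (pSer2 Pol2) and for input DNA, and each library pooled liver of 6 rats. The ChIP vehicle group was 1 library at 140 min and 1 at 180 min, both from the pulsatile vehicle, so constant CORT had no constant vehicle of its own in ChIP. Liver RNA was sequenced at 180 min in 4 groups of 3 libraries (PULS CORT, PULS VEH, CONS CORT and CONS VEH).

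GR is a hormone-activated transcription factor that binds DNA directly at palindromic elements and also holds back NF-kB and AP-1, the factors that drive cytokine genes. IkBa keeps NF-kB in the cytoplasm. A20, which has ABIN-1 as a binding partner, removes ubiquitin chains that carry signals to NF-kB. GILZ binds the NF-kB subunit p65, and tristetraprolin directs the decay of mRNAs with AU-rich elements. IL-1 signals through IL1R1 and its accessory chain IL1RAP, a route that IRAK-M blocks, while IL-6 signals through IL6R and gp130 and drives the acute phase response of hepatocytes. pSer2 Pol2 marks polymerase that is elongating within a gene.

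Sequencing depth was 3956379 to 7777219 counted reads per RNA library, 2051977 to 6715803 tags per GR library and 4938473 to 9326927 tags per pSer2 Pol2 library. In the RNA libraries the 6 hepatocyte markers summed to 83747 to 132607 CPM (counts scaled to the library total), against 284 to 518 for 10 Kupffer cell and macrophage markers, 255 to 348 for 4 endothelial, 12.9 to 27.4 for 7 lymphoid and 0.860 to 5.52 for 4 neutrophil markers. The hepatocyte sum was 83747 to 122899 in CONS VEH and at least 119223 in every library of the other groups. Cd5l, Mpo and Krt19 were at 0 in all 12 libraries, and no Kupffer cell, lymphoid, neutrophil or endothelial marker passed the test in either comparison of CORT with VEH. Tat, a hepatocyte enzyme induced by glucocorticoids, rose in both, by 1.41 (PULS) and 1.82 (CONS) on the log2 scale. Of 5 stellate cell markers, which summed to 146 to 256 CPM, Rgs5 and Dcn rose with CONS, by 1.30 and 1.16, while Reln was at -0.45, Des at -0.23 and Lrat at -0.16, so the median of the list was -0.16. Their sum was 146 to 179 in PULS CORT against 206 to 256 in PULS VEH, without overlap. It was 158 to 194 in CONS CORT against 184 to 217 in CONS VEH. The part of these cell types in the results was not tested. In whole tissue, fewer cells of a type and less RNA per cell cannot be told apart.

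The promoters of 6 of the genes are shown, Nfkbia, Il1r1, Tsc22d3, Il6r and Zfp36 because they passed in both pSer2 Pol2 and RNA, and Tnfaip3 because it held the most matches to an NF-kB-type motif. Each is the 250 bases upstream of a RefSeq start site in the GRCr8 assembly, written along the gene's strand. Capitals mark matches to that motif on either strand, which reads GGG, then 3 bases of any kind, then TTCC.
Nfkbia: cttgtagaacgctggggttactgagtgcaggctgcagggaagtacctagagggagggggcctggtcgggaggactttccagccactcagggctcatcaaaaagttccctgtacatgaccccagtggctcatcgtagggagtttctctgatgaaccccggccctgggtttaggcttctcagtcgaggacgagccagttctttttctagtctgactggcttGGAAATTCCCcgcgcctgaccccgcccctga
Tnfaip3: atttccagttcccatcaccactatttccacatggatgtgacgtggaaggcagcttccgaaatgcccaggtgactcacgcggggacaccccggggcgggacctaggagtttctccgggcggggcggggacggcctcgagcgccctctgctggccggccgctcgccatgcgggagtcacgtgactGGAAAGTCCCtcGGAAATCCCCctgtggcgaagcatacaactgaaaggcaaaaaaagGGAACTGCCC
Il1r1: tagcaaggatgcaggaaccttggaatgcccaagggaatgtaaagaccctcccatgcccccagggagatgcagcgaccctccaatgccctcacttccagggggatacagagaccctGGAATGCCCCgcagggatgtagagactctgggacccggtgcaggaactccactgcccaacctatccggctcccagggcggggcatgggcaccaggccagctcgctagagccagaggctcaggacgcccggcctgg
Tsc22d3: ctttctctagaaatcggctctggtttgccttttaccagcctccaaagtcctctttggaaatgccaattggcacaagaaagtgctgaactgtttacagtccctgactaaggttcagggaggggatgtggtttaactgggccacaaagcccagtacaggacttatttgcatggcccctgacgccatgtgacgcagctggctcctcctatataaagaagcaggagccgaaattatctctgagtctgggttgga
Il6r: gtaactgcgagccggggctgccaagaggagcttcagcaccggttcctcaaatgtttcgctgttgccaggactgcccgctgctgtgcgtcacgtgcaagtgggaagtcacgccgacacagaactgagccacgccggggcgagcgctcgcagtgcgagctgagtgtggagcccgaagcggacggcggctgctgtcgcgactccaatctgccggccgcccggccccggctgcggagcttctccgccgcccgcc
Zfp36: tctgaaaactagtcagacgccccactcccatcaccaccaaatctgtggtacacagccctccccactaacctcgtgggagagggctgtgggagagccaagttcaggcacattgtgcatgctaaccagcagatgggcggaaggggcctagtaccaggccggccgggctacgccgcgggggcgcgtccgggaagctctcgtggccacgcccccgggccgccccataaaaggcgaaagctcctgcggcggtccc
The windows lie on the plus strand at chr9:50034133-50034382 (Il1r1) and on the minus strand at chr6:78597073-78597322 (Nfkbia), chr1:15543980-15544229 (Tnfaip3), chrX:109010035-109010284 (Tsc22d3, 1 of 3 RefSeq start sites), chr2:177645210-177645459 (Il6r) and chr1:92799109-92799358 (Zfp36). Nfkbia held 1 match, at 31 to 22 bases before the start site, and Tnfaip3 held 3, of which 2 also matched a narrower form (GGG, 2 bases of any kind, then TTTCC) that lies within the wider. Tnip1 held a pair of overlapping matches on opposite strands, Il1r1 held 1, at 135 to 126 bases before the start site, and the printed windows of Tsc22d3, Il6r and Zfp36 held none. The wider form occurred in 4.53% of 33469 RefSeq promoter windows of the same length and the narrower in 1.30%. The GR palindrome (AGAACA and TGTTCT with 3 bases between them) was in none of the windows of the 9 genes and in 0.0120% of all windows, and AGAACA on its own, also searched on both strands, was in none of them and in 17.5% of all. TATAAA was in the Tsc22d3 window shown, 44 to 39 bases before the start site, and in 12.9% of all windows. A match of letters is a description and not a binding site. The GR regions of the deposited files are on rn6, an earlier build, and their sequence is not printed here.

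In RNA, genes were called raised or lowered at an adjusted p below 0.05 with a change of more than 1.5-fold (edgeR, 14092 genes tested). CONS raised 5 of the 9 genes over CONS VEH (Tsc22d3, Zfp36, Il6r, Nfkbia and Il1r1), where 4.45% of all genes tested were raised. PULS raised 3 of the 9 over PULS VEH (Tsc22d3, Il6r and Nfkbia), where 1.79% of all were raised. None of the 9 was lowered (4.75% of all genes were with CONS and 2.44% with PULS). Tnfaip3, Tnip1, Il1rap and Irak3 did not pass in either comparison.

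Tsc22d3 was at 3.80, 2.64 and 4.98 CPM (from here scaled with TMM factors) in the PULS VEH libraries and at 33.1, 13.8 and 16.7 CPM in PULS CORT. It was at 3.42, 3.75 and 4.89 CPM in CONS VEH and at 32.7, 28 and 35.3 CPM in CONS CORT. Every CORT library was above every VEH library, and the first PULS CORT library stood with the CONS CORT libraries, above the other two of its group. The change was 5.67-fold with PULS (log2 2.5 ± 0.31 SE, adjusted p = 0.00022) and 7.99-fold with CONS (log2 3.00 ± 0.29, adjusted p = 5.2e-06).

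Nfkbia was at 13.0, 18.9 and 14.7 CPM in PULS VEH and at 33.3, 24.7 and 26.1 CPM in PULS CORT. It was at 18.6, 21.4 and 18.1 CPM in CONS VEH and at 58.7, 37.9 and 45.0 CPM in CONS CORT. The groups did not overlap within either pattern. It rose 1.81-fold with PULS (log2 0.86 ± 0.19, adjusted p = 0.014) and 2.44-fold with CONS (log2 1.28 ± 0.17, adjusted p = 0.00012). The PULS call was lost without the first PULS CORT library (log2 0.71, adjusted p = 0.078) and without the first PULS VEH library (log2 0.74, adjusted p = 0.061).

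Zfp36 was at 1.22, 2.20 and 2.53 CPM in CONS VEH and at 14.6, 7.32 and 11.5 CPM in CONS CORT, a rise of 5.73-fold (log2 2.52 ± 0.32, adjusted p = 6.4e-05). With pulses it was at 2.35, 2.45 and 3.32 CPM in PULS VEH and at 5.39, 4.95 and 3.23 CPM in PULS CORT. The lowest PULS CORT library lay among the vehicle libraries, and the difference did not pass (log2 0.76 ± 0.36, adjusted p = 0.25). The vehicle libraries of this gene held 10 to 16 reads each, which limits the precision of both folds.

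Among the receptors, Il6r was at 83.3, 71.4 and 109 CPM in PULS VEH, at 173, 141 and 177 CPM in PULS CORT, at 99.3, 84.6 and 68.8 CPM in CONS VEH and at 282, 281 and 269 CPM in CONS CORT. The 3 CONS CORT libraries lay above all others and close to each other. Il6r rose 1.86-fold with PULS (log2 0.90 ± 0.16, adjusted p = 0.0039) and 3.28-fold with CONS (log2 1.72 ± 0.16, adjusted p = 3.3e-06). Il1r1, the signalling chain of the IL-1 receptor, was at 337, 590 and 495 CPM in PULS VEH and at 435, 395 and 331 CPM in PULS CORT, with groups that overlapped (log2 -0.29 ± 0.20, adjusted p = 0.46). In the constant arms it was at 368, 394 and 236 CPM in CONS VEH and at 650, 568 and 575 CPM in CONS CORT, a rise of 1.80-fold (log2 0.84 ± 0.20, adjusted p = 0.0098).

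The other 4 genes gave small differences with wide or narrow intervals. Irak3 was 1.41-fold higher with CONS and missed the threshold (log2 0.50, 95% interval 0.13 to 0.86, adjusted p = 0.072), but passed without the second CONS VEH library (log2 0.67, adjusted p = 0.022). Il1rap, the accessory chain, had an interval of -0.12 to 0.43 with CONS and -0.25 to 0.30 with PULS. Tnip1 had one of -0.43 to 0.17 with CONS and -0.37 to 0.26 with PULS. Tnfaip3, with 7 to 40 reads per library, had one of -1.09 to 0.41 with CONS and -1.28 to 0.34 with PULS. The intervals of Tnfaip3 hold no change, a moderate fall and a smaller rise.

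**Figure D1:**
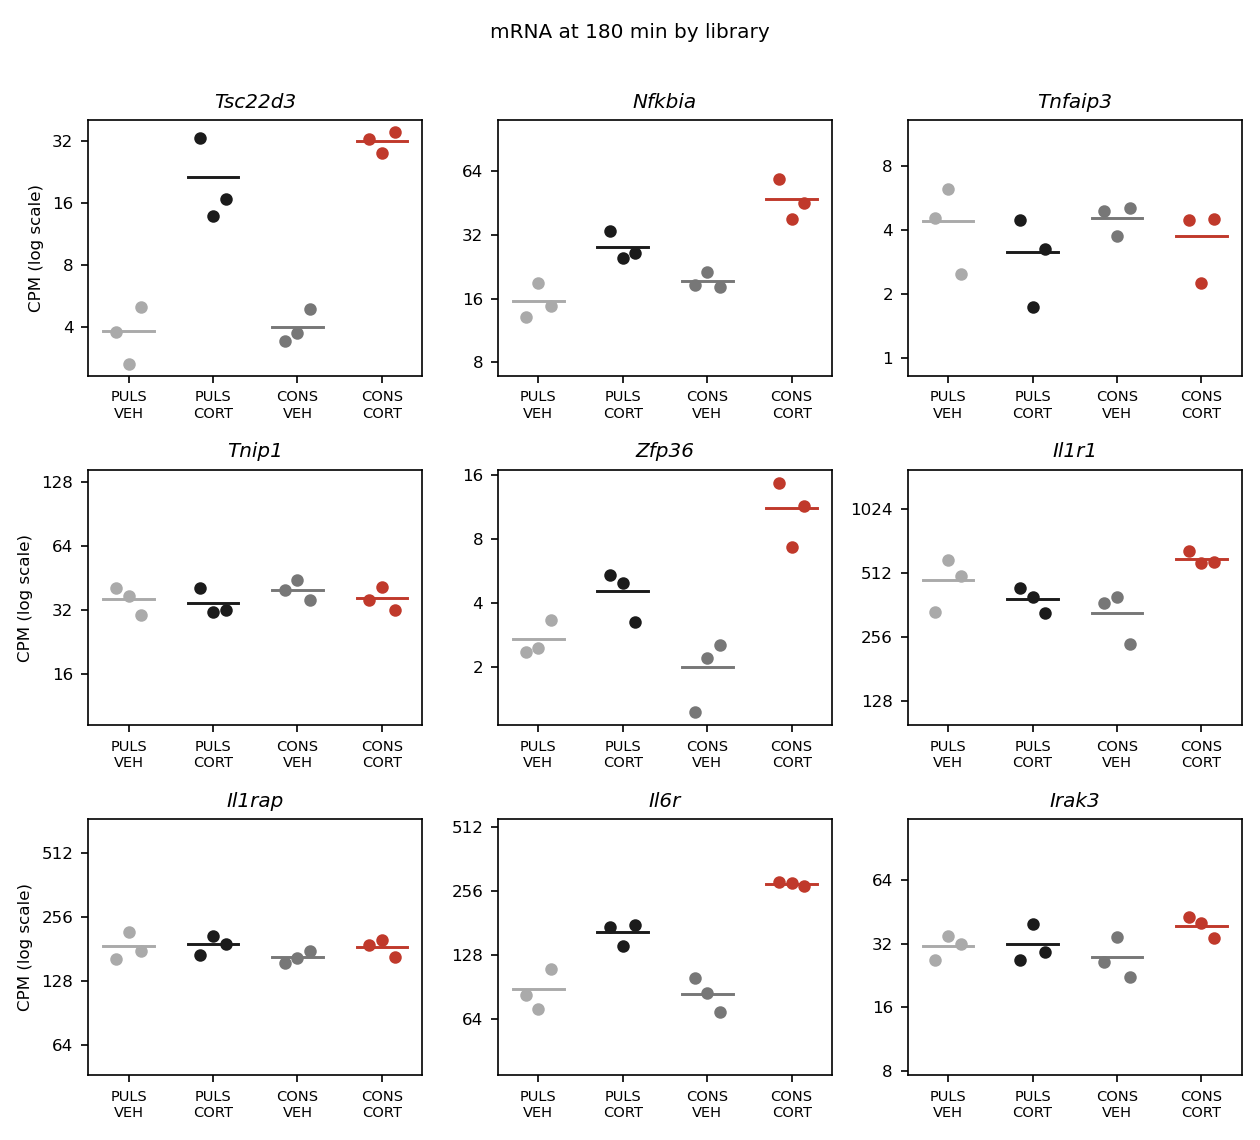
mRNA of the 9 genes at 180 min in 12 libraries. Each point is 1 library in CPM on a log axis and the line is the group mean of 3. Tsc22d3, Nfkbia and Il6r were raised with both patterns and Zfp36 and Il1r1 with CONS.

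The direct comparison of CONS CORT with PULS CORT at 180 min called 1 of the 9, Il6r, which was 1.69-fold higher with CONS (log2 0.76 ± 0.16, adjusted p = 0.032). Of all genes tested, 0.617% were higher with CONS. That call was lost on leaving out any 1 of the 6 CORT libraries, with adjusted p up to 0.19. Zfp36 (log2 1.26 ± 0.29, adjusted p = 0.052), Nfkbia (log2 0.74 ± 0.17, adjusted p = 0.054) and Il1r1 (log2 0.63 ± 0.20, adjusted p = 0.19) missed the threshold. Tsc22d3 differed by log2 0.57 (adjusted p = 0.40), and by 1.06 (adjusted p = 0.019) without the first PULS CORT library.

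The difference between the 2 patterns in their change over vehicle (the pattern by CORT interaction) called none of the 9, against 0.0284% of all genes in either direction. At an unadjusted p under 0.05 there were 3 of the 9, against 12.4% of all genes. These were Il1r1 (log2 1.14, adjusted p = 0.10), Zfp36 (log2 1.76, adjusted p = 0.15) and Il6r (log2 0.82, adjusted p = 0.14). DESeq2 called 2 of them, Il1r1 (log2 1.13, adjusted p = 0.0093) and Il6r (log2 0.81, adjusted p = 0.026). CONS VEH against PULS VEH called none of the 9 and 0% of all genes, with Il1r1 lower in CONS VEH at an unadjusted p of 0.021 (log2 -0.51, adjusted p = 0.47; 9.13% of all genes were below 0.05 unadjusted).

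In pSer2 Pol2, occupancy over the gene (its first 10 kb, or the whole gene where shorter) was compared on the deposited log2 scale (limma, 38315 regions of 16500 genes tested). PEAK_140 raised 5 of the 9 genes over VEH (Tsc22d3, Il1r1, Nfkbia, Il6r and Zfp36), where 0.382% of all genes had a raised region. CONS_140 raised 4 (Tsc22d3, Nfkbia, Il6r and Zfp36; 0.648% of all genes), and CONS_180 raised 2 (Tsc22d3 and Il6r; 0.182% of all). NADIR_180 raised none of the 9 and 0% of all genes. At an unadjusted p under 0.05, 2 of the 9 (Il1r1 and Zfp36) were higher in NADIR_180 than in VEH, where 1.45% of all regions differed at that threshold. Fits on the libraries of the compared groups alone called none of the 9 in any pSer2 Pol2 comparison, and centring each library on its median gave 5 at CONS_180 in place of 2.

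Tsc22d3 was at log2 5.64 and 5.71 in VEH, at 9.18 and 8.99 in PEAK_140, at 6.04 and 6.12 in NADIR_180, at 10.15 and 9.52 in CONS_140 and at 8.94 and 8.53 in CONS_180. The nadir libraries lay just above vehicle and the other CORT libraries far above both. The change over VEH was log2 3.41 ± 0.33 at PEAK_140 (adjusted p = 0.0012), 0.41 at NADIR_180 (95% interval -0.32 to 1.14), 4.16 at CONS_140 (adjusted p = 0.00033) and 3.06 at CONS_180 (adjusted p = 0.0029). Tsc22d3 was also the one gene of the 9 to pass in PEAK_140 against NADIR_180 (log2 3.00, adjusted p = 0.0030; 0.261% of all genes raised) and in CONS_180 against NADIR_180 (log2 2.65, adjusted p = 0.0077; 0.17% of all).

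Nfkbia was at log2 6.92 and 6.43 in VEH, at 8.85 and 8.60 in PEAK_140, at 7.45 and 7.27 in NADIR_180, at 9.53 and 9.26 in CONS_140 and at 8.53 and 7.96 in CONS_180. It rose at PEAK_140 (log2 2.05 ± 0.34, adjusted p = 0.015) and at CONS_140 (log2 2.72 ± 0.34, adjusted p = 0.0044), while CONS_180 gave 1.57 (adjusted p = 0.15). Zfp36 was at 8.58 and 8.39 in VEH, at 10.21 and 9.83 in PEAK_140, at 9.36 and 9.31 in NADIR_180, at 11.08 and 10.81 in CONS_140 and at 10.32 and 9.71 in CONS_180. It rose at PEAK_140 (log2 1.54 ± 0.30, adjusted p = 0.038) and at CONS_140 (log2 2.46 ± 0.30, adjusted p = 0.0044), while CONS_180 gave 1.53 (adjusted p = 0.10). In both genes the nadir libraries lay between VEH and all other CORT libraries.

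Il6r was at log2 7.69 and 6.87 in VEH, at 9.36 and 9.25 in PEAK_140, at 7.88 and 7.80 in NADIR_180, at 10.11 and 9.60 in CONS_140 and at 9.50 and 9.17 in CONS_180. It rose at PEAK_140 (log2 2.02 ± 0.35, adjusted p = 0.020), CONS_140 (log2 2.58 ± 0.35, adjusted p = 0.0062) and CONS_180 (log2 2.05 ± 0.35, adjusted p = 0.049). Its nadir libraries were close to the 140 min VEH library, and the change there was 0.56 (95% interval -0.21 to 1.33).

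Il1r1 had another order. It was at log2 8.18 and 7.70 in VEH, at 10.22 and 10.52 in PEAK_140, at 9.24 and 9.48 in NADIR_180, at 8.95 and 8.52 in CONS_140 and at 9.24 and 9.22 in CONS_180. PEAK_140 was the highest group, and both nadir libraries lay at or above the level of the constant groups. It rose at PEAK_140 (log2 2.43 ± 0.31, adjusted p = 0.0042), and the differences at CONS_140 (log2 0.79, adjusted p = 0.54), CONS_180 (1.29, adjusted p = 0.23) and NADIR_180 (1.42, adjusted p = 0.60) did not pass. In PEAK_140 against CONS_140, none of the 9 passed (0.0303% of all genes), and Il1r1 was higher at the peak by log2 1.64 ± 0.31 (adjusted p = 0.080), where the median of all regions was -0.26. With the replicate number as a block in the 8 CORT libraries Il1r1 passed (adjusted p = 0.0401), and in the same 8 without the block it did not (adjusted p = 0.19). It also passed without the second CONS_140 library (log2 1.42, adjusted p = 0.0085), as did Tsc22d3 (-1.07, adjusted p = 0.020) and Zfp36 (-1.06, adjusted p = 0.037), both lower at the peak. The other 4 of the 5 Il1r1 regions gave changes at PEAK_140 over VEH of up to 2.57, and all 5 passed there. The margin of the peak over the other CORT groups was smaller in some of these regions. PEAK_140 against CONS_140 ran from log2 0.92 to 1.64 over the 5 regions, and CONS_140 against VEH from 0.79 to 1.66. PEAK_140 against NADIR_180 was as low as 0.48. None of the 5 regions passed in these 3 comparisons.

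Tnfaip3 was at log2 5.24 and 4.81 in VEH, at 6.97 and 7.38 in PEAK_140, at 5.11 and 5.82 in NADIR_180, at 6.01 and 2.97 in CONS_140 and at 4.95 and 3.24 in CONS_180. Both peak libraries lay above all others, but the 2 libraries of a constant group differed by more than 1 log2 unit and the change at PEAK_140 did not pass (log2 2.15, 95% interval 0.36 to 3.94, adjusted p = 0.67). Tnip1 lay between 3.61 and 4.41 and Il1rap between 3.93 and 4.91 in all 10 libraries, a range of at most 1 log2 unit, and no comparison of either gene passed. Irak3 lay between 2.28 and 2.86 in all 10 libraries. The lowest library of every group was at 2.28, a repeated value like that of a signal at its floor. Its narrow range is therefore no measure of unchanged occupancy.

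**Figure D2:**
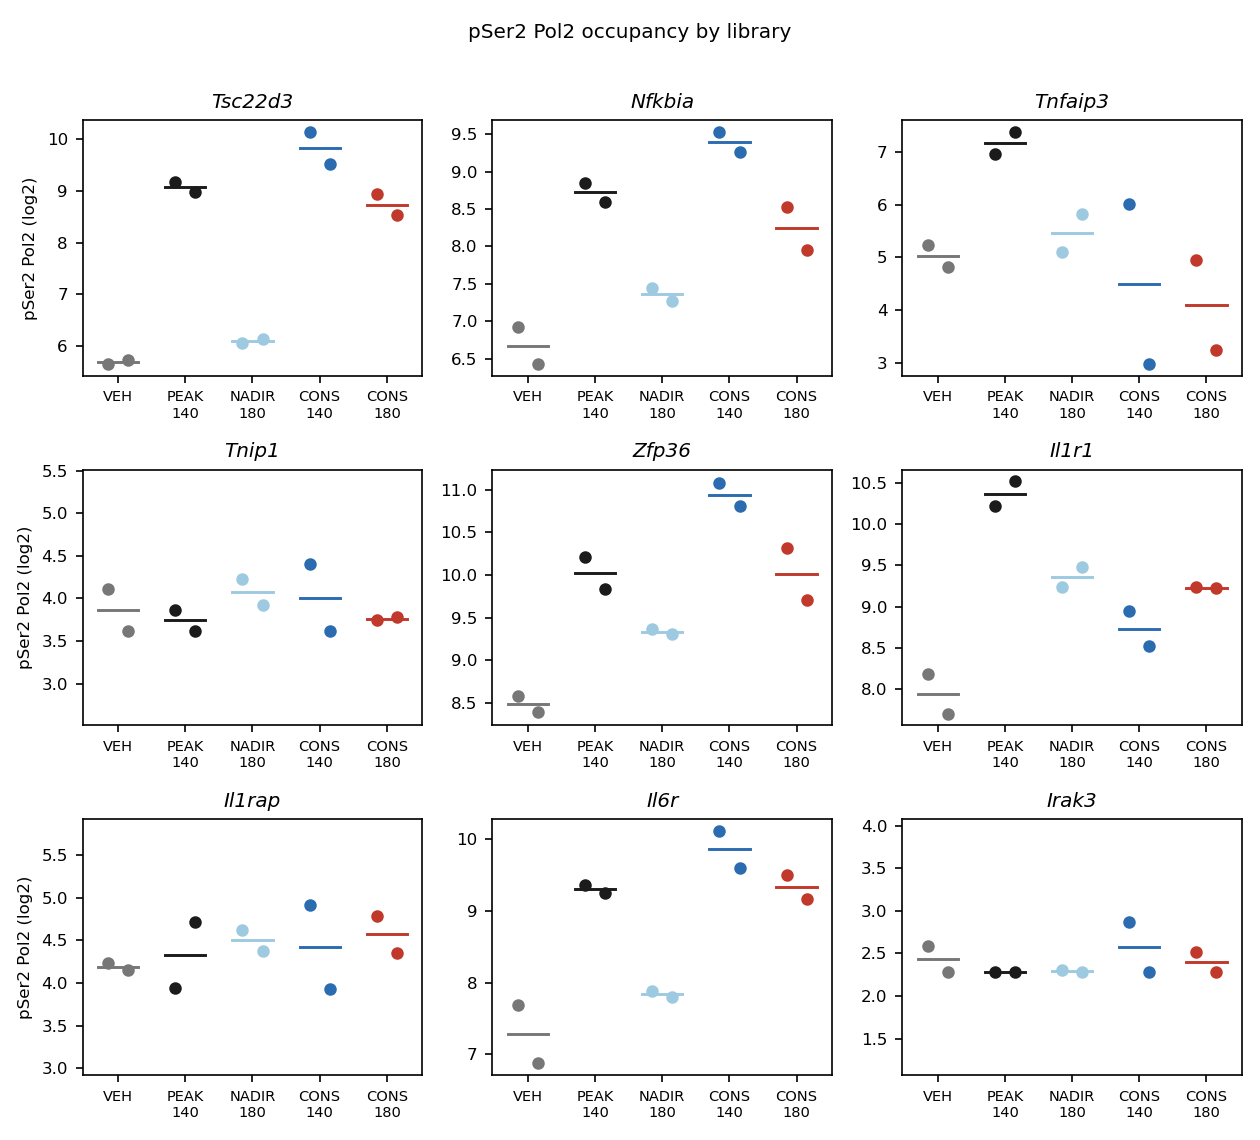
pSer2 Pol2 occupancy of the 9 genes in 10 libraries. Each point is 1 library (a pool of 6 rats) on the deposited log2 scale and the line is the mean of 2. Tsc22d3, Nfkbia, Zfp36 and Il6r were high in PEAK_140, CONS_140 and CONS_180, and Il1r1 was highest in PEAK_140.

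CONS_140 against CONS_180 called none of the 9 and 0% of all genes. At an unadjusted p under 0.05, where 2.96% of all regions differed, were 3 of the 9, Nfkbia (log2 1.15, adjusted p = 0.63), Tsc22d3 (1.10, adjusted p = 0.63) and Zfp36 (0.93, adjusted p = 0.63). Each was higher at 140 min and passed without the second CONS_140 library, with adjusted p of 0.0081 to 0.042. Relative to the median of all regions, which was itself 0.15 above VEH at CONS_140 and 0.17 above CONS_180, these differences were smaller by that amount. The difference between patterns in their change from 140 to 180 min (the pattern by time interaction) called none of the 9 and 0.0667% of all genes, with Tsc22d3 at log2 1.90 (adjusted p = 0.25) and Il1r1 at 1.51 (adjusted p = 0.40).

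With 2 libraries a group, these pSer2 Pol2 calls depended on single libraries. Tsc22d3 passed at PEAK_140 and CONS_140 on leaving out any 1 of the 10 libraries. At PEAK_140, Il1r1 missed without the 180 min VEH library (adjusted p = 0.063), Nfkbia without any 1 of 8 libraries (adjusted p up to 0.19), Il6r without any 1 of 9 (up to 0.20) and Zfp36 without any 1 of 10 (up to 0.34). At CONS_140, Nfkbia, Il6r and Zfp36 each missed without the 180 min VEH library, either NADIR_180 library or the first CONS_140 library (adjusted p up to 0.11). At CONS_180, Tsc22d3 missed without the 180 min VEH or either CONS_180 library (up to 0.12) and Il6r without any library (up to 0.52). Tsc22d3 in PEAK_140 against NADIR_180 missed without the first library of either group (up to 0.10), and in CONS_180 against NADIR_180 without the first NADIR_180 or either CONS_180 library (up to 0.26). The direction of each was the same throughout. A leave-out also gives the fit fewer samples to estimate the spread.

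GR was measured at 7 regions near Tsc22d3, 4 each near Il1r1 and Il6r, 2 each near Nfkbia and Zfp36, and 1 each near Il1rap and Tnfaip3. Of the 21, 7 lay within introns of their own gene. These included a region of Nfkbia (rn6 chr6:76269501-76270126, centred 643 b after the TSS), 3 regions of Il6r, the nearest at 442 b (chr2:189253873-189254498), and the regions of Tnfaip3 (chr1:14410137-14410762, 2357 b), Il1r1 (chr9:46971914-46972539, 9938 b) and Il1rap (chr11:77576786-77577411, 16108 b). Zfp36 had a region over its transcript end (chr1:85382504-85383194, 2761 b) and Tsc22d3 one in its promoter (chrX:111888507-111889132, 913 b before the TSS). In the authors' peak lists, merged over the 2 libraries of each group, 19 of the 21 overlapped a PEAK_140 peak (80.6% of all 3981 regions), 10 a CONS_140 peak (43.3%), 15 a CONS_180 peak (61%) and none a NADIR_180 (1.81%) or VEH peak (2.91%). The PEAK_140, CONS_140 and CONS_180 lists shared 10 of the 21 (31.4% of all), PEAK_140 alone held 6 (27.5%) and CONS_180 alone held 2 (7.64%).

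Because the regions were called as peaks in these same libraries, a rise over VEH or NADIR_180 was partly fixed by how they were chosen. So was a positive pattern by time interaction. Each count stands beside that of all regions (limma). PEAK_140 raised 21 of 21 over VEH (78.6% of all regions), CONS_140 17 (64.7%), CONS_180 18 (67.9%) and NADIR_180 3 (7.44%). The shares near the 9 genes were near or above those of all regions, and the median change was log2 4.51 against 4.17 for all regions at PEAK_140, 4.29 against 3.38 at CONS_140, 4.16 against 3.46 at CONS_180 and 1.13 against 0.84 at NADIR_180. After centring each library on its median over all GR regions, which removes what the regions share, 0 of the 21 passed at PEAK_140, 2 at CONS_140, 1 at CONS_180 and 0 at NADIR_180. In the VEH libraries 15 and 16 of the 21 were below 0 on the log2 scale, in the NADIR_180 libraries 6 and 14, in CONS_140 0 and 3, and in PEAK_140 and CONS_180 none. Many low pairs kept almost the same spacing, like signals at a floor. At Il1r1 (9938 b), Tnfaip3 and Il1rap, VEH was at -0.80 and -0.98, -0.82 and -1.0, and -0.99 and -1.17. NADIR_180 was at -0.73 and -0.57, -0.76 and -0.59, and -0.92 and -0.76. The size of a change from such values depends on where that floor lies.

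The region in Nfkbia at 643 b was at log2 -0.46 and -0.66 in VEH, at 4.84 and 5.47 in PEAK_140, at 2.38 and -0.20 in NADIR_180, at 7.66 and 7.28 in CONS_140 and at 6.32 and 6.45 in CONS_180. Both constant groups lay above the peak group. Against VEH it rose by 8.03 ± 0.77 in CONS_140, by 6.95 in CONS_180 and by 5.71 in PEAK_140, while PEAK_140 against CONS_140 gave -2.31 and did not pass (adjusted p = 0.27). The other region, 16757 b after the TSS, was at 5.88 and 5.31 in PEAK_140, 5.65 and 5.57 in CONS_140 and 4.27 and 5.10 in CONS_180, against 0.70 and 0.47 in VEH and -0.53 and -0.36 in NADIR_180.

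The Zfp36 region at the transcript end had positive log2 values without CORT, at 2.65 and 2.83 in VEH, but overlapped no VEH peak. It was at 7.20 and 6.98 in PEAK_140, 4.77 and 3.90 in NADIR_180, 8.24 and 8.07 in CONS_140 and 6.95 and 6.85 in CONS_180. The Il6r region at 12624 b was at 2.01 and -0.33 in VEH, 7.65 and 7.64 in PEAK_140, 4.76 and 3.90 in NADIR_180, 7.51 and 7.56 in CONS_140 and 7.03 and 7.05 in CONS_180. These, with the Zfp36 region at 3944 b (2.02 and 3.34 in NADIR_180), were the 3 regions raised at NADIR_180, by 1.59 (adjusted p = 0.023), 3.49 (adjusted p = 0.013) and 2.67 (adjusted p = 0.046). None of the 3 overlapped a NADIR_180 peak. Without the first NADIR_180 library the first pair gave 1.16 (adjusted p = 0.098) and 3.05 (adjusted p = 0.083). The Zfp36 region at 3944 b missed the threshold without any 1 of 9 libraries (adjusted p up to 0.18).

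Near Tsc22d3 all 7 regions were raised at PEAK_140, CONS_140 and CONS_180. The promoter region was at log2 -0.54 and 1.69 in VEH, 4.6 and 4.74 in PEAK_140, 2.66 and 1.75 in NADIR_180, 3.57 and 4.51 in CONS_140 and 4.33 and 3.40 in CONS_180. The changes over VEH of the 7 ran from 3.5 to 4.81 at PEAK_140, from 2.53 to 4.86 at CONS_140 and from 2.43 to 5.14 at CONS_180, the lowest being in each case the region 25392 b before the TSS and the highest the one 34430 b after it. Relative to the median of all GR regions in each library, the region at 34430 b was higher than in VEH in all 3 groups, whereas of the other 6 regions all were lower at PEAK_140, 5 at CONS_140 and 6 at CONS_180, none of them past the threshold.

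The Il1r1 region at 9938 b and the Il1rap and Tnfaip3 regions were high at the peak. The Il1r1 region at 9938 b was at log2 6.02 and 5.24 in PEAK_140, 3.61 and 4.02 in CONS_140, 4.51 and 3.74 in CONS_180, -0.73 and -0.57 in NADIR_180 and -0.80 and -0.98 in VEH. The Tnfaip3 region was at 5.27 and 5.15 in PEAK_140, 3.70 and 4.53 in CONS_140, 3.01 and 4.07 in CONS_180, -0.76 and -0.59 in NADIR_180 and -0.82 and -1.0 in VEH. At both, each peak library was above each constant library, but PEAK_140 against CONS_140 did not pass at Il1r1 (log2 1.82, adjusted p = 0.27) or at Tnfaip3 (1.09, adjusted p = 0.46). Each PEAK_140 library was above each CONS_140 library at 8 of the 21 regions and at 44.9% of all regions. The Il6r region at 442 b had no such order, at 4.69 and 5.27 in PEAK_140 and 5.61 and 4.34 in CONS_140. The Il1rap region was at 5.16 and 4.88 in PEAK_140, 4.59 and 3.89 in CONS_180 and 3.13 and -1.11 in CONS_140, so its CONS_140 libraries differed by over 4 log2 units and the change there did not pass (2.09, adjusted p = 0.15).

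**Figure D3:**
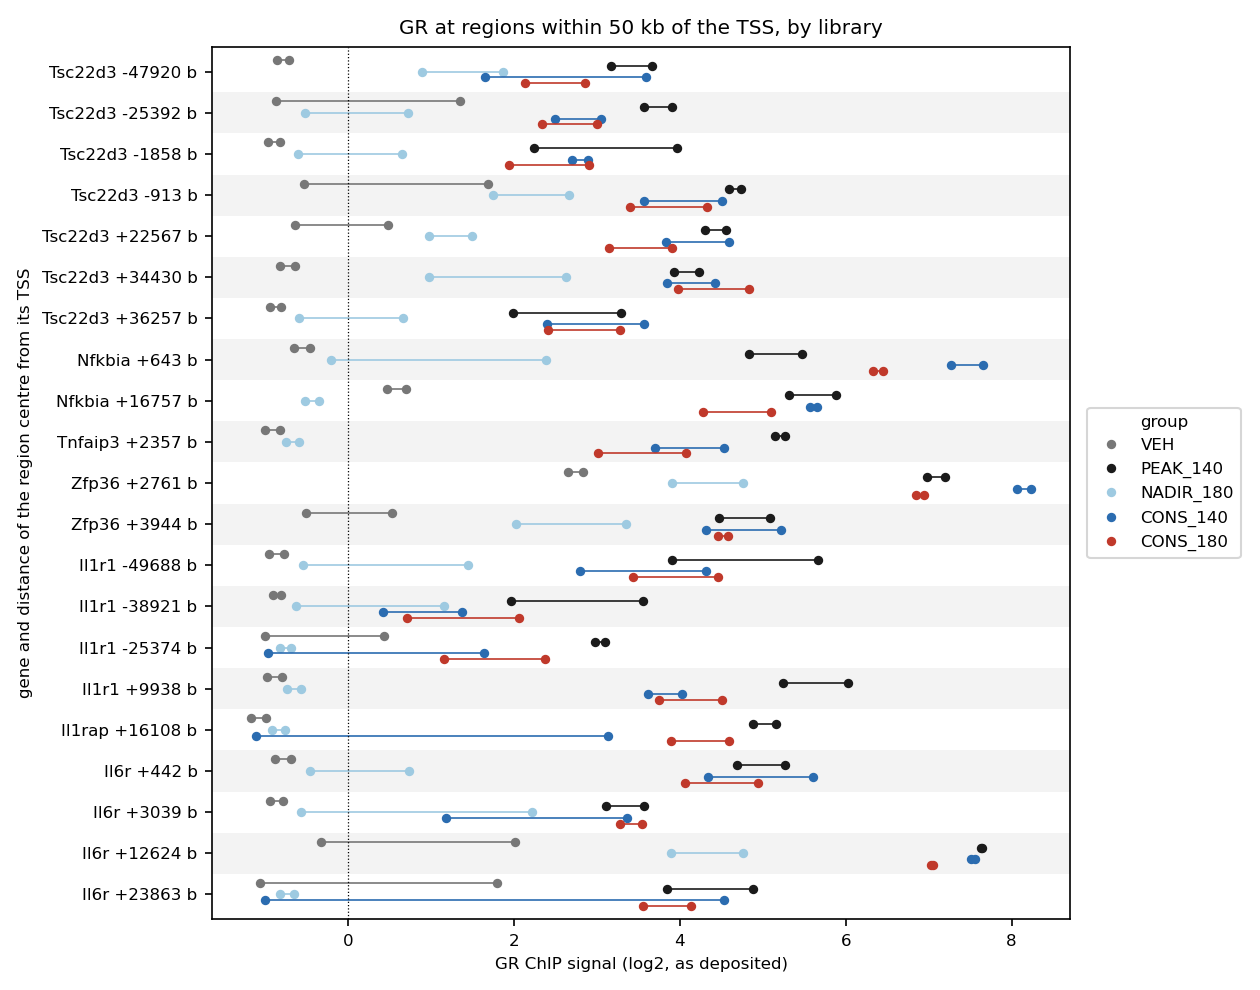
GR signal at the 21 regions in 10 libraries, on the deposited log2 scale. Points are libraries, a line joins the 2 libraries of a group, and labels give the distance of the region centre from the TSS. At the Nfkbia region 643 b after the TSS, for example, the PEAK_140 points sit at 4.84 and 5.47 and the VEH points at -0.46 and -0.66.

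PEAK_140 against NADIR_180 raised 20 of the 21 regions (68.8% of all) and CONS_180 against NADIR_180 raised 16 (49.6% of all), with medians of log2 3.31 and 2.61 against 3.20 and 2.49 for all regions. Without the first PEAK_140 or the second NADIR_180 library the former count was 13, and without the second NADIR_180 or either CONS_180 library the latter was 7 or 8. After median centring both were 0. PEAK_140 against CONS_140 called none of the 21 and 0.0502% of all regions, and CONS_140 against CONS_180 called none of the 21 and 0% of all regions. At an unadjusted p under 0.05, 5 of the 21 differed in PEAK_140 against CONS_140 (14.1% of all regions) and 2 in CONS_140 against CONS_180 (4.87% of all). The pattern by time interaction, positive where the pulsatile groups lost more signal from 140 to 180 min than the constant groups, passed at 11 of the 21 (43.6% of all), with a median of 2.99 against 3.11 for all regions. That count was 4 to 6 without either PEAK_140, the second NADIR_180, the second CONS_140 or either CONS_180 library, and 0 after median centring.

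The measures can be set side by side, mRNA having been taken at 180 min alone. With pulses, pSer2 Pol2 of Tsc22d3 was raised at PEAK_140 and fell by NADIR_180 in the direct comparison, and its mRNA was raised at 180 min. Nfkbia and Il6r had pSer2 Pol2 raised at PEAK_140 and mRNA raised at 180 min, but PEAK_140 against NADIR_180 did not pass for Nfkbia (log2 1.36, adjusted p = 0.19) or Il6r (log2 1.47, adjusted p = 0.16). Il1r1 rose in pSer2 Pol2 with the pulse and its mRNA rose with CONS. Tnfaip3 had a GR region raised by 6.12 at PEAK_140 with no change in pSer2 Pol2 or mRNA that passed, and Il1rap one raised by 6.10, likewise. The mRNA and ChIP libraries were separate preparations, and the relation between them was not tested.

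**Figure D4:**
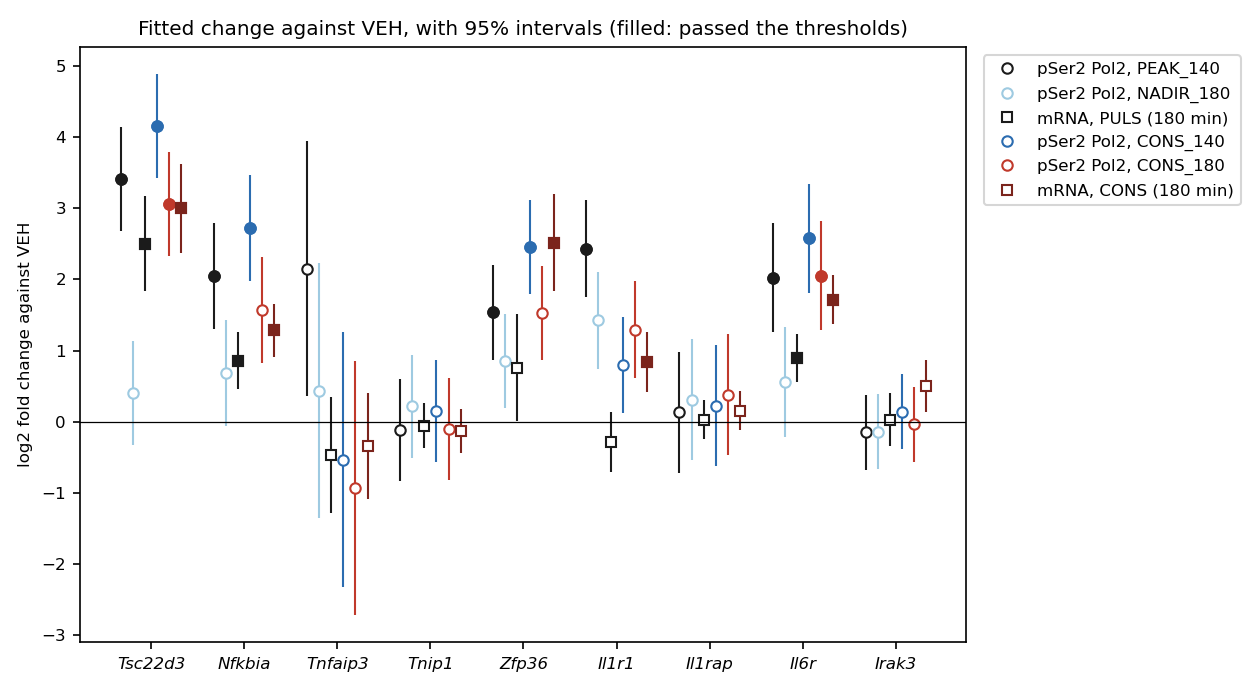
Fitted log2 change against VEH for each gene with 95% intervals, pSer2 Pol2 as circles and mRNA as squares, filled where the thresholds were passed. Tsc22d3 is filled in every group but NADIR_180, and Tnip1, Il1rap, Irak3 and Tnfaip3 are open throughout.

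Of 102 other genes in the same pathways, 86 were tested in RNA. CONS raised 7 (8.14%) and lowered 9 (10.5%), where 4.45% of all genes were raised and 4.75% lowered. PULS raised 1 (1.16%) and lowered 6 (6.98%), where 1.79% were raised and 2.44% lowered. The interaction called none of the 86.

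In the IL-1 receptor family CONS raised 1 and lowered 1 of 21. Il1rl2, the IL-36 receptor chain, rose by log2 1.36 (adjusted p = 0.020) and Il18bp, a decoy for IL-18, fell by 0.85 (adjusted p = 0.025). In the IL-6 family and JAK-STAT list CONS raised 1 of 13, Il6st, which encodes gp130, the chain that signals with IL6R (log2 0.90, adjusted p = 0.0019). PULS lowered 1 of 13, the STAT3 inhibitor Pias3 (log2 -1.05, adjusted p = 0.039). Il6st was at 340, 271 and 455 CPM in CONS CORT and at 167, 212 and 190 CPM in CONS VEH, without overlap. With pulses it was at 302, 318.5 and 284 CPM in PULS CORT and at 163, 220 and 219 CPM in PULS VEH, also without overlap. That difference missed the threshold (log2 0.59, adjusted p = 0.056), and the interaction was 0.32 (adjusted p = 0.62).

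Among 16 NF-kB subunits, inhibitors and kinases, Relb, a subunit of the non-canonical pathway, fell with CONS (log2 -1.04, adjusted p = 0.041) and with PULS (-1.41, adjusted p = 0.025). CONS also lowered the kinase Ikbke (-0.61, adjusted p = 0.0083) and raised Nfkbiz (0.83, adjusted p = 0.024), an atypical IkB protein that acts in the nucleus as a coactivator. Of 15 genes of the A20 complex and TNF receptor list, CONS raised Tax1bp1 (0.73, adjusted p = 0.00072), an A20 adaptor, and Otulin (0.70, adjusted p = 0.0065), a linear-ubiquitin protease, and both patterns lowered Tnfrsf1b, a TNF receptor (-0.95 with CONS and -0.87 with PULS).

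Of 9 genes of mRNA decay, CONS lowered Zfp36l1 (log2 -1.26, adjusted p = 2.2e-05), a paralogue of Zfp36, from 49.1, 58.6 and 57.9 CPM in CONS VEH to 19.3, 26.5 and 22.9 CPM in CONS CORT. With PULS the mRNA of Zfp36l1 did not pass (-0.19, adjusted p = 0.52), and it was lower in CONS CORT than in PULS CORT (-0.69, adjusted p = 0.037). Its pSer2 Pol2 occupancy fell at PEAK_140 (-1.56, adjusted p = 0.012) and was not called at CONS_140 or CONS_180. Of 6 TSC22 family and other anti-inflammatory targets, Tsc22d1 fell with CONS (-1.97, adjusted p = 2.6e-06) and PULS (-1.20, adjusted p = 0.00085), while Dusp1, a MAP kinase phosphatase, rose with both (1.23 and 1.61) and Tsc22d2 rose with CONS (0.71, adjusted p = 0.00090). So Zfp36 and Tsc22d3 rose with CONS where a paralogue of each fell.

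Of 13 inflammatory genes driven by NF-kB, 6 were tested in RNA, and CONS lowered 3 and PULS 2 of them. The chemokine Cxcl1 was at 4.35, 35.9 and 34.2 CPM in PULS VEH and at 0.577, 1.48 and 0.746 CPM in PULS CORT (log2 -4.73, adjusted p = 0.0021), and at 5.13, 12.1 and 6.70 CPM in CONS VEH and 1.22, 0 and 0.896 CPM in CONS CORT (-3.56, adjusted p = 0.014). Csf1, the macrophage growth factor, fell with both patterns (-0.99 with CONS and -1.24 with PULS), and Icam1 fell with CONS (-1.09, adjusted p = 0.00084). In pSer2 Pol2, 1 of the 87 listed genes tested was raised and 2 were lowered at PEAK_140, the raised one being the chemokine Cxcl10 (log2 3.48, adjusted p = 0.0061) and the lowered ones Zfp36l1 and Tsc22d1 (-1.61, adjusted p = 0.032). CONS_140 lowered Socs2 (-3.99, adjusted p = 0.022) and CONS_180 lowered Tsc22d1 (-1.83, adjusted p = 0.044). Of all genes, 0.636% were lowered at PEAK_140, 0.176% at CONS_140 and 0.0545% at CONS_180. These pSer2 Pol2 genes were named after their values were seen.

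The genes most like each raised one across the 12 RNA libraries were found among 10789 genes by the smallest root mean square difference of log2 CPM after centring. The 2 nearest to Tsc22d3 were Edem1 (0.26) and Rasgef1b (0.28), to Nfkbia Zfp385d (0.17) and Pnpla7 (0.19), and to Zfp36 Dcaf13 (0.28) and Adamtsl2 (0.29). For Il6r they were Ell2 (0.17), an elongation factor subunit, and Pptc7 (0.18). For Il1r1 they were Susd6 (0.14) and Med26 (0.19). Susd6 was higher with CONS by log2 0.90 and lower with PULS by -0.34, beside 0.84 and -0.29 for Il1r1. Edem1 was higher by 3.28 and 2.44, beside 3.00 and 2.5 for Tsc22d3. The points share their libraries, so these are descriptions with no test.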

How the data were processed

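RNA-Seq, GR ChIP-Seq and pSer2 Pol2 ChIP-Seq of rat liver were analysed from the tables the authors deposited, on rn6 with Ensembl annotation. The deposited RNA table holds raw read counts per gene, which the authors made with featureCounts 1.6.2 from trimmed and aligned reads (STAR is among the tools in the submitters' processing notes). The deposited ChIP tables hold log2 values per region and library, which the authors made from reads trimmed with Trimmomatic 0.36, with HOMER 4.9.1 and DESeq2, after subtracting input tags, relative to tags within binding regions for GR and to total tags for pSer2 Pol2. The exact transform is not given in the sources used here, and such values can pull low regions together, so folds from them may be too small and raw tags per region were not used here. The GR peak lists were called by the authors with HOMER against input, kept by reproducibility (IDR) and merged over the replicates. Columns and files that hold the authors' own comparisons (fold changes, p-values) were not used.

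Counts were compared in R 4.3.3 with edgeR 4.0.16 (TMM, quasi-likelihood test, 12 libraries in 1 fit, genes with over 10 reads in total), and log2 values with limma 3.58.1 (variance trend, 10 libraries in 1 fit; pSer2 Pol2 regions that held tags in at least 1 library). P-values were two-sided and adjusted by Benjamini-Hochberg over all genes or regions tested, and a call needed an adjusted p below 0.05 and a change of over 1.5-fold. For pSer2 Pol2 the value of a gene is that of its gene-level region, and it was called where at least 1 of its regions was. All 9 genes were described whatever their result, with up to 3 called genes of each pathway list by size of change. The genes and lists were chosen with earlier results of these data known. P-values measure the spread between these samples, 2 pools per ChIP group or 3 libraries per RNA group. Same-numbered pSer2 Pol2 libraries deviated together (correlations of 0.155 to 0.553 over 6 pairs of groups). The main pSer2 Pol2 fit had no replicate block, so its p-values leave that pairing out. A block was run only as an alternative, in the 8 CORT libraries. VEH carries no number. GR (-0.0265 to 0.0718) and RNA (-0.0488 to 0.0810) numbers did not pair. The scripts were tested on simulated data. Peak overlap used bedtools 2.31.1 (at least 1 base). Alternatives were other scalings (median centring, RLE), DESeq2 1.42.0, other filters, thresholds, windows, a replicate block and leaving out each library; the 8 CORT libraries without the block were added after seeing the data. Promoters are from RefSeq (GRCr8), where all 9 genes had an entry.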

Additional observations from a re-analysis of the deposited data

Results flagged for a closer look

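At 11 of the 21 GR regions the change between 140 and 180 min differed between pulsatile and constant CORT, by the test of the difference itself (limma, adjusted p of 0.0038 to 0.043). All 11 overlapped a PEAK_140 peak and none a NADIR_180 peak, so a positive difference was partly fixed by how the regions were chosen. The values below are PEAK_140 minus NADIR_180, less CONS_140 minus CONS_180, on the log2 scale. Near Il1r1 they were 4.73 (49688 b before the TSS), 5.22 (25374 b before) and 6.6 (9938 b after), and at Il1rap 9.09. The Il1rap value rests in part on its CONS_140 libraries, which stood at 3.13 and -1.11, the second at the level of VEH. Near Il6r they were 4.37 (442 b), 2.82 (12624 b) and 7.18 (23863 b), the last again with 1 low CONS_140 library (4.54 and -1.01). At Nfkbia the region 16757 b after the TSS gave 5.11, at Tnfaip3 5.31, near Tsc22d3 the region 25392 b before the TSS 3.53, and at Zfp36 the region over the transcript end 1.49. Of all 3981 GR regions 43.6% passed in this direction, so the members' share was near that of all regions. The calls at Il1r1 (9938 b), Il1rap, Nfkbia and Tnfaip3 were kept on leaving out any 1 library, and each of the other 7 was lost without at least 1. None passed after each library was centred on its median, and Il6r (12624 b) and Zfp36 then had the opposite sign.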

How the results depend on the processing

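With 2 pools a group, ChIP calls depended on single libraries and on which libraries shared the fit. Tnfaip3 and Zfp36 had few reads in RNA. Leaving out each library in turn gave these ranges of calls. For RNA they were 2 to 3 of 9 with PULS, 5 to 6 with CONS, 0 to 1 in the interaction, 0 to 2 in CONS CORT against PULS CORT and 0 to 0 between vehicles. For pSer2 Pol2 they were 1 to 3 of 9 at PEAK_140, 0 to 0 at NADIR_180, 1 to 5 at CONS_140, 0 to 1 at CONS_180, 0 to 1 in PEAK_140 against NADIR_180, 0 to 3 in CONS_140 against CONS_180, 0 to 3 in PEAK_140 against CONS_140, 0 to 1 in CONS_180 against NADIR_180 and 0 to 2 in the interaction. For GR they were 18 to 21 of 21 at PEAK_140, 1 to 4 at NADIR_180, 15 to 19 at CONS_140, 16 to 21 at CONS_180, 13 to 21 in PEAK_140 against NADIR_180, 0 to 0 in CONS_140 against CONS_180, 0 to 3 in PEAK_140 against CONS_140, 7 to 17 in CONS_180 against NADIR_180 and 4 to 14 in the interaction.

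In RNA, the interaction called 2 with no filter and 2 with DESeq2, in place of 0. CONS CORT against PULS CORT called 0 at an adjusted p below 0.01, 4 with no filter, 3 with DESeq2 and 2 with only the libraries compared, in place of 1. In pSer2 Pol2, only the libraries compared gave 0 at PEAK_140, CONS_140 and CONS_180 and in PEAK_140 and CONS_180 against NADIR_180. The stricter adjusted p gave 2 at PEAK_140 and 1 at CONS_180. At CONS_180 the count was also 1 with no variance trend and with 1 region per gene, and 5 with median centring and with the regions above the median level. Those last 2 settings gave 3 and 2 in PEAK_140 against NADIR_180 and 1 and 1 in PEAK_140 against CONS_140. Median centring gave 2 in CONS_180 against NADIR_180 and 2 in the interaction. The causes were not tested, except that fewer libraries leave fewer degrees of freedom.

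For GR, the stricter adjusted p gave 0 at NADIR_180, 13 in PEAK_140 against NADIR_180, 7 in CONS_180 against NADIR_180 and 4 in the interaction. NADIR_180 had 1 with no variance trend and 0 with only the libraries compared, which gave 1 in PEAK_140 against CONS_140. The 20 kb window holds fewer regions and gave 12 at PEAK_140, 11 at CONS_140, 11 in PEAK_140 against NADIR_180, 10 in CONS_180 against NADIR_180 and 7 in the interaction. Median centring gave 0 at PEAK_140, 0 at NADIR_180, 2 at CONS_140, 1 at CONS_180, and 0 in PEAK_140 against NADIR_180, in CONS_180 against NADIR_180 and in the interaction. By its construction it subtracts the shift that all regions share, and 43 called changes of single regions then had the opposite sign. At PEAK_140 these were Il1r1 -38921 at -0.999 and -25374 at -1.30, Il6r +3039 at -0.42 and +23863 at -0.62, Zfp36 +2761 at -0.27, and Tsc22d3 -47920 at -0.41, -25392 at -1.12, -1858 at -0.62, -913 at -0.52, +22567 at -0.11 and +36257 at -1.10, each named by its distance in b from the TSS. At CONS_140 they were Il6r +3039 at -0.98 and Tsc22d3 -47920 at -0.70, -25392 at -1.58, -1858 at -0.42, -913 at -0.65 and +36257 at -0.25. At CONS_180 they were Tsc22d3 -47920 at -0.78, -25392 at -1.64, -1858 at -0.75, -913 at -0.77, +22567 at -0.46 and +36257 at -0.34. In PEAK_140 against NADIR_180 they were Il1r1 -38921 at -0.95, Il6r +12624 at -0.12, Zfp36 +2761 at -0.69 and +3944 at -1.34, and Tsc22d3 -47920 at -1.41, -1858 at -0.35, -913 at -0.97, +22567 at -0.24, +34430 at -1.16 and +36257 at -0.83. In CONS_180 against NADIR_180 they were Il6r +12624 at -0.17, Zfp36 +2761 at -0.32 and +3944 at -1.05, and Tsc22d3 -25392 at -0.32, -1858 at -0.48, +22567 at -0.59, +34430 at -0.27 and +36257 at -0.065. In the interaction they were Il6r +12624 at -0.57 and Zfp36 +2761 at -1.89. No called RNA or pSer2 Pol2 change had the opposite sign under any alternative run.

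With the replicate number as a block, the pSer2 Pol2 count in PEAK_140 against CONS_140 was 1 (Il1r1) in place of 0, and no other pSer2 Pol2 count moved. The numbers of the GR and RNA libraries gave no sign of pairing. With a block the RNA counts were 3, 5, 0, 1 and 0 as before, and the GR counts were 18 in PEAK_140 against NADIR_180, 16 in CONS_180 against NADIR_180 and 13 in the interaction, against 18, 15 and 11 in the same 8 CORT libraries without it.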
